A study of Mus musculus with 12 samples.

Results

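The measurements described here are ribosome footprints of mouse B cell lymphoma cells in which serine 38 of the ribosomal protein RPL12 was changed to alanine (RPL12 S38A), compared between cells labelled mitotic and asynchronous cells. The libraries were chosen by their labels, and 4 of the 12 libraries of the series belong to this comparison, 2 from S38A mitotic and 2 from S38A asynchronous cells. The other 8 come from cells labelled WT or RPL12 S38D, with serine 38 changed to aspartate, in the same 2 states, and are used only where the change in S38A cells is set beside theirs. All 6 groups are of the line 19PP. It was derived from a Rag2-/-γC-/- mouse, a strain without its own lymphocytes, that had received bone marrow carrying Cγ1-Cre and Myc/P110*flSTOP. In these alleles Cre, driven from Cγ1 in activated B cells, removes a stop cassette and switches on Myc and an active form of the PI3K catalytic subunit, so every group carries both oncogenes. Per the labels' protocols, the cells grown were the subline 19DN, from which the GFP and hCD2 reporters had been excised by Flp and which had been sorted for their absence. Mitotic cells received 100 ng/mL nocodazole for 8 hr, were washed, and spent 10 min in fresh medium before harvest. Each condition was grown in 3 plates, and all cells were collected in cycloheximide, which holds ribosomes in place. The state itself and the drug, washing and medium change that came with it cannot be told apart. The number of S38A clones is not stated in the labels, nor whether replicate libraries began as separate cultures. The p-values below therefore reflect library-to-library spread, which could be technical.

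RPL12, also called uL11, sits at the base of the stalk of the large ribosomal subunit, where translation factors bind. Alanine cannot be phosphorylated, so the S38A protein cannot carry a phosphate at this position, while aspartate carries a negative charge. Nocodazole keeps tubulin from assembling, and the spindle checkpoint then holds dividing cells before anaphase, with cyclin B and its kinase CDK1 active. Translation is known to be lowered during mitosis, and the messenger RNAs of individual genes can depart from the general trend. A footprint level reflects both the amount of a messenger RNA and how densely ribosomes occupy it, and RNA-seq of these cells was not analysed here. The title of the study states its interest in how phosphorylation of RPL12 regulates translation during mitosis, and the comparison below asks how footprints change with state where that phosphorylation is blocked at serine 38.

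Coding-sequence reads per S38A library ranged from 323093 to 440741, and 9376 to 9751 of 22520 gene IDs had at least 1 read. Levels are given as CPM, in which the reads of every library are brought to the same sum. A floor of 3 reads lies between 6.81 and 9.29 CPM of coding reads in a single S38A library, so changes of genes near that level are poorly measured. Intervals and floors cover counting error only. The 2 libraries of each S38A group correlated at r = 0.959 in asynchronous and r = 0.960 in mitotic cells, over the log2 CPM of 4259 well-covered genes, which are not independent replicates. They differed by more than counting noise, the ratio of chi-square to its degrees of freedom being 1.25 in both groups. Of all alignments in the count tables, unique or not, those to several places made up 62.3 and 62.8% in asynchronous and 70.4 and 65.8% in mitotic libraries. This measure was thus higher in both mitotic libraries, and its part in the results below was not tested. Uniquely aligned reads outside the counted features were 25.8 and 22.2% in asynchronous and 27.5 and 25.6% in mitotic libraries, so these values overlapped. The gene IDs were not matched to symbols. RPL12 itself, B cell markers and markers of other cell types were therefore not located, and genes are given by ID.

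In S38A cells, 1246 of 6692 genes tested had more or fewer footprints in mitotic libraries, 604 higher and 642 lower (adjusted p under 0.05, edgeR quasi-likelihood test with Benjamini-Hochberg adjustment). This is 18.6% of all genes tested, 9.03% higher and 9.59% lower. Most of these changes were modest. At least 2-fold changes made up 232 of the higher and 248 of the lower genes, while 372 and 394 changed by less, and the median log2 change was 0.89 among the higher and -0.89 among the lower genes. Across all genes tested the median log2 change was -0.0101 and the median absolute log2 change 0.399. Libraries were lined up on the typical gene by TMM, so the scaling itself favours a median close to no change and an even balance. This balance is relative and cannot show whether footprints per cell rose or fell. In 602 of the 604 higher genes and 641 of the 642 lower genes, both mitotic libraries lay on 1 side of both asynchronous ones, which also held for 58.6% of all genes tested. DESeq2 called 565 genes, 282 higher and 283 lower, and all 565 were among the 1246. It gave no adjusted p for 2076 genes. Fewer genes passed whenever 1 S38A library was left out, and not all of those that passed were among the 1246.

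The called genes held a sizeable part of all coding reads, and this part shifted between states. Genes called higher took 12.5 and 13.0% of coding reads in the asynchronous libraries and 21.9 and 21.2% in the mitotic ones. Genes called lower took 22.5 and 22.2% in asynchronous and 12.8 and 12.9% in mitotic libraries. Since the genes were chosen for their change in these same libraries, these shares describe how large the shift was and are no test of it. The libraries of the other genotypes did not enter that contrast, but shared the filter, the scaling and the estimate of spread with it. There the S38A higher genes took 15.7 and 14.8% of coding reads in asynchronous and 22.7 and 23.3% in mitotic WT cells. In S38D cells they took 16.3 and 17.1% and then 24.9 and 24.8%. The S38A lower genes took 17.8 and 18.6% in asynchronous and 11.7 and 11.5% in mitotic WT libraries, and 18.2 and 17.6% against 10.5 and 10.3% in S38D libraries. In each genotype the states did not overlap in either share. Among asynchronous libraries, those of S38A cells had the lowest share of the higher genes and the highest share of the lower genes, an order that the choice of genes favours.

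How many genes passed the test depended on their abundance. The 6692 genes were divided by mean CPM over all libraries into 4 classes of 1673 genes, with TMM-scaled sums over the tested genes. Of the class with the lowest CPM, 10.7 to 38.2, 5.38% were called in S38A cells, 36 higher and 54 lower. In the second class 10.3% were called, in the third 21.2%, and among the most abundant genes, from 146 CPM upward, 37.7%, with 322 higher and 308 lower. The smallest absolute log2 change that passed was 1.05 in the lowest class and 0.261 in the highest, where the median standard error was 0.184 against 0.492. Counts of called genes in S38A cells are therefore weighted towards abundant genes, and a 2-fold change of a scarce gene was at the edge of what this depth could show.

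**Figure D1:**
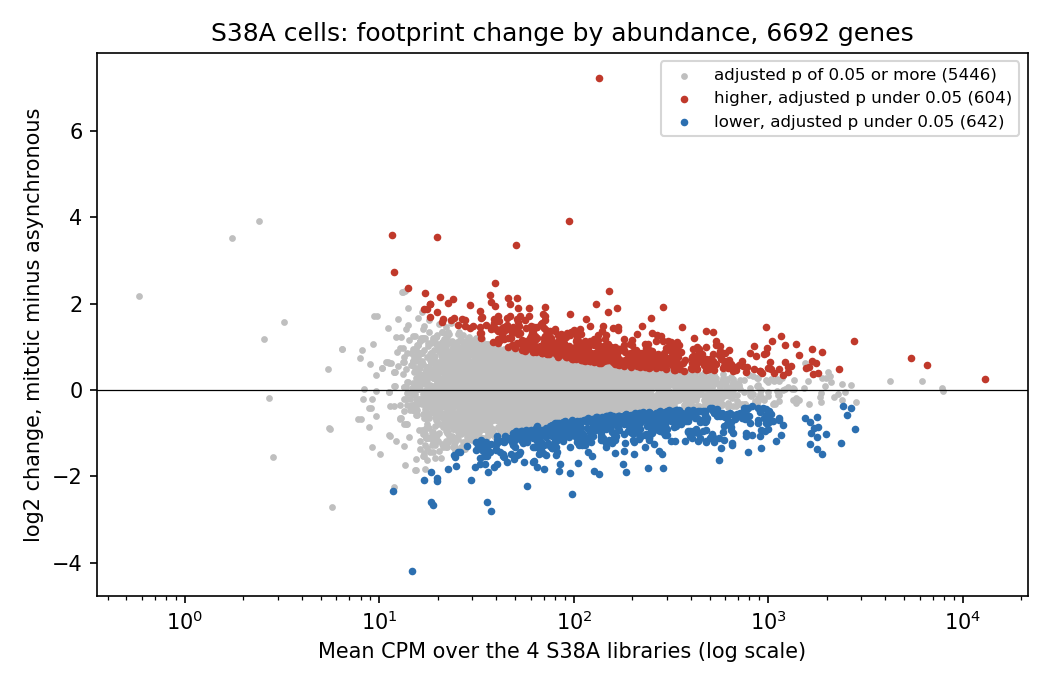
Each point is 1 of the 6692 genes tested, placed by its mean CPM over the 4 S38A libraries (horizontal, log scale) and its log2 change from asynchronous to mitotic S38A cells (vertical); red and blue points passed an adjusted p of 0.05 (edgeR). The 604 higher and 642 lower genes lie on both sides of 0, and small changes pass only at high CPM.

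The largest rise among genes with a mean of at least 10 CPM belonged to ENSMUSG00000021250.13. Its reads in S38A cells numbered 0 and 1 in the asynchronous libraries and 115 and 102 in the mitotic ones, or 0 and 3.23 CPM against 268.5 and 270.2 CPM. The groups were far apart and the mitotic libraries nearly equal, at 269.4 ± 1.19 CPM (SD, n = 2). Over all coding reads the mitotic level was 189 times the asynchronous one, with a 95% exact binomial interval of 33.6 to 7500 that covers counting error only and is wide because 1 read stands on the lower side (adjusted p = 1.90e-19, edgeR). The mitotic S38A libraries were also above the 161 and 186.6 CPM of mitotic WT and the 191.6 ± 11.9 CPM (SD, n = 2) of mitotic S38D libraries. This difference of level between genotypes was not tested. Asynchronous WT libraries had 0 and 0 reads of this gene and asynchronous S38D libraries 3 and 3. Its log2 change in S38A cells was not shown to differ from that in WT (difference -1.72 ± 1.82, SE, adjusted p = 0.833) or S38D cells (2.40 ± 1.16, SE, adjusted p = 0.455, edgeR). With so few asynchronous reads, these tests could hardly show a difference.

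ENSMUSG00000026360.9 had the next largest rise. It went from 10.4 and 12.9 CPM in asynchronous to 172.8 and 182.8 CPM in mitotic S38A libraries, and the groups did not overlap. Its log2 change was 3.90 ± 0.36 (SE, n = 2 against 2, adjusted p = 5.75e-13, edgeR). In WT cells the log2 change was 4.19 ± 0.46 and in S38D cells 3.39 ± 0.39 (SE), and neither difference from S38A passed the test (adjusted p = 0.962 and 0.874, edgeR).

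Among genes that fell, ENSMUSG00000040270.16 had the largest change. It had 33.9 and 22.6 CPM in asynchronous and 2.33 and 0 CPM in mitotic S38A libraries, from 13, 7, 1 and 0 reads. Over all coding reads the exact binomial 95% interval of the asynchronous over the mitotic level was 3.67 to 952, so the size of the fall is poorly known (log2 change -4.19 ± 0.97, SE, adjusted p = 0.000912, edgeR). ENSMUSG00000021730.8 followed, at 31.3 and 100.3 CPM in asynchronous and 0 and 18.5 CPM in mitotic S38A libraries. The groups did not overlap, but libraries of 1 group differed several-fold. Its log2 change was -2.80 ± 0.65 (SE, n = 2 against 2, adjusted p = 0.00096, edgeR). The call was lost without S38A asynchronous replicate 2, with a log2 change of -1.82 (adjusted p = 0.155), and without S38A mitotic replicate 1, with -1.72 (adjusted p = 0.103). It was kept without S38A asynchronous replicate 1, at -3.48 (adjusted p = 0.000101), and without S38A mitotic replicate 2, at -7.47 (adjusted p = 0.000483), which leaves 0 reads on the mitotic side, so that value is no measured size. DESeq2 gave -2.84 (adjusted p = 0.334). The same gene was uneven in S38D cells too, at 63.6 and 4.43 CPM in asynchronous and 0 and 24.6 CPM in mitotic libraries. In WT cells it was even, at 125.1 and 109.5 CPM and then 36.9 and 31.1 CPM (log2 change -1.78 ± 0.46, SE, adjusted p = 0.00313, edgeR).

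**Figure D2:**
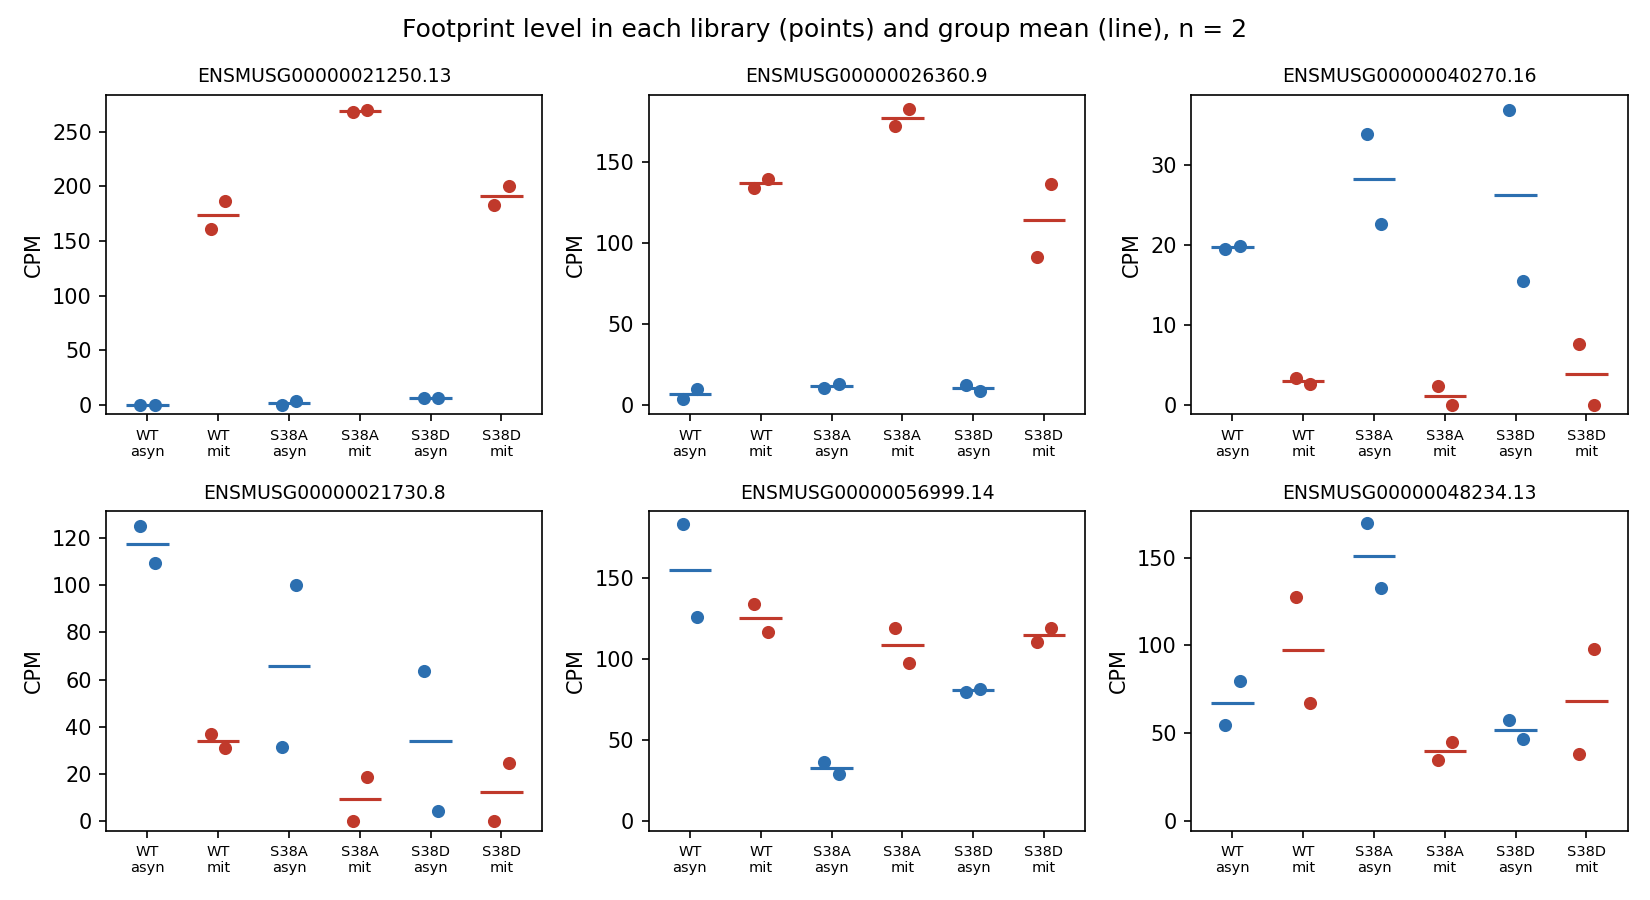
CPM of 6 genes in each of the 12 libraries (points, blue for asynchronous and red for mitotic) with the mean of each group of 2 (line); each panel has its own linear axis starting near 0. ENSMUSG00000021250.13 and ENSMUSG00000026360.9 rose in every genotype, while ENSMUSG00000048234.13 stood at 169.6 and 132.6 CPM in asynchronous S38A libraries and at 35.0 and 45.0 CPM in mitotic ones.

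The 15 genes with the largest rises in S38A cells, under the same conditions on level and overlap, had log2 changes of 2.11 to 7.23, and the 15 with the largest falls had -4.19 to -1.91. Means over the S38A libraries were 11.6 to 152 CPM among the rises and 11.8 to 185 CPM among the falls. All 15 rising genes had a positive log2 change in WT and in S38D cells, 9 of them called in WT and 11 in S38D, with 3 called in neither. Of all genes tested, 9.13% were called higher in WT and 10.6% in S38D cells. The median log2 change of the rising genes was 2.35 in S38A, 1.40 in WT and 1.81 in S38D cells. Of the 15 falling genes, 10 had a negative log2 change in WT and 12 in S38D cells. There 6 and 5 were called, beside 9.26 and 10.9% of all genes tested called lower, and 7 were called in neither. The medians of the falling genes were -2.22, -1.33 and -1.46. The genes were ranked on their S38A values, which favours large changes there, so the smaller medians elsewhere are a description. Of the 30 genes, 1 passed the test of a difference from WT and 1 that from S38D, beside 0.448 and 0.239% of all genes tested.

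The change in S38A cells was then read in genes chosen by their change in WT and S38D cells. S38A libraries did not enter those contrasts, but shared the filter, the scaling and the estimate of spread with them. In WT cells, mitotic and asynchronous libraries differed in 1231 genes, 18.4% of those tested (9.13% higher, 9.26% lower), and in S38D cells in 1435, or 21.4% (10.6% higher, 10.9% lower). Both of these comparisons called 391 genes higher. In S38A cells 382 of the 391 also had a positive log2 change, 266 passed the test, which is 68.0% of them against 9.03% of all genes tested, and none of them passed it in the opposite direction. For the 386 genes lower in both WT and S38D cells, 370 had a negative log2 change in S38A cells, 252 were called lower, or 65.3% against 9.59% of all genes tested, and 0 were called higher. Their median log2 change was 0.78 in S38A, 0.93 in WT and 0.91 in S38D cells for the higher genes, and -0.69, -0.96 and -1.01 for the lower ones. WT and S38D values chose these genes, and a choice on size enlarges them, so the smaller S38A medians were not tested as a difference. Calls were more frequent among abundant genes, and the chosen genes were not matched for abundance with all genes tested.

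Conversely, 194 of the 604 genes higher in mitotic S38A cells, or 32.1%, were called higher in neither WT nor S38D cells, as were 232 of the 642 lower genes, or 36.1%. Missing the threshold elsewhere does not show that a gene behaved differently there. Of these genes, 132 higher and 157 lower ones had the same sign in both other genotypes. In the same direction, the difference from the WT change passed its own test for 2 of the 194 and 13 of the 232, beside 0.149 and 0.299% of all genes tested. For the difference from the S38D change it was 1 and 1, beside 0.134 and 0.105%. The choice of genes favours such differences, so these counts are a description. Of all 642 lower genes, 10 were called higher in WT cells, beside 9.13% of all genes tested, and 0 in S38D cells, beside 10.6%. Of the 604 higher genes, 1 was called lower in WT cells, beside 9.26%, and 0 in S38D cells, beside 10.9%.

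Tested directly over all genes, the mitotic change in S38A cells differed from that in WT cells in 30 of 6692 genes, 0.448% of those tested, 10 with a larger value in S38A (0.149%) and 20 with a smaller one (0.299%; adjusted p under 0.05, edgeR). At an unadjusted p under 0.05 there were 613. DESeq2 called 31 genes, of which 21 were among the 30, but its own filter left 5838 of the 6692 genes without an adjusted p, so the counts are not like for like. The 10 higher calls were 20 without WT asynchronous replicate 1 and 5 without WT mitotic replicate 1 or S38A mitotic replicate 1. Of the 20 genes with the smaller value, 17 fell in S38A cells and 13 rose in WT cells, and 10 did both. Their median log2 change was -0.82 in S38A and 0.65 in WT cells. Of the 10 with the larger value, 9 fell in WT cells and 2 rose in S38A cells, with medians of -0.70 and 0.24.

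ENSMUSG00000056999.14 had the largest positive difference from WT. Its level was low in asynchronous S38A libraries, at 36.5 and 29.1 CPM, and rose to 119.1 and 98.0 CPM in mitotic ones. WT libraries had 183.7 and 126.1 CPM in asynchronous and 134.2 and 116.6 CPM in mitotic cells, and S38D libraries 80.0 and 82.0 CPM and then 110.7 and 119.3 CPM. The mitotic libraries of the 3 genotypes lay close together, and the asynchronous libraries set them apart. The log2 change was 1.71 ± 0.32 in S38A and -0.30 ± 0.24 in WT cells, a difference of 2.00 ± 0.40 (SE, adjusted p = 0.00209, edgeR). The difference from S38D, 1.20 ± 0.42, did not pass (adjusted p = 0.239, edgeR).

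ENSMUSG00000031245.8 fell in WT and S38D cells and did not pass the test in S38A cells. It had 370.4 and 469.1 CPM in asynchronous and 371.2 and 296.7 CPM in mitotic S38A libraries, which overlapped. In WT cells it fell from 383.1 and 623.6 CPM to 167.7 and 150.3 CPM, and in S38D cells from 426.8 and 416.4 CPM to 156.4 and 231.5 CPM. The difference of the log2 changes, S38A minus WT, was 1.37 ± 0.27 (SE, adjusted p = 0.00179, edgeR), while S38A minus S38D, at 0.79 ± 0.27, did not pass (adjusted p = 0.209). The former was lost without WT asynchronous replicate 2, at 0.97 (adjusted p = 0.169), and without S38A mitotic replicate 1, at 1.23 (adjusted p = 0.0633).

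ENSMUSG00000026883.17 moved in opposite directions in S38A and WT cells. It fell from 70.4 and 80.9 CPM to 14.0 and 39.7 CPM in S38A cells and rose from 23.5 and 13.3 CPM to 43.6 and 51.8 CPM in WT cells, with no overlap between states in either. In S38D cells the states overlapped, at 36.9 and 26.6 CPM and then 49.6 and 28.1 CPM. The log2 changes differed by -2.92 ± 0.63, S38A minus WT (SE, adjusted p = 0.00536, edgeR). It was lost without WT asynchronous replicate 2 (-2.53, adjusted p = 0.0936), WT mitotic replicate 2 (-2.73, adjusted p = 0.109) or S38A mitotic replicate 1 (-2.28, adjusted p = 0.133), and no library held more than 27 of its reads. ENSMUSG00000048707.9, with at most 28 reads in any library of these genotypes, differed by -2.70 ± 0.65 (SE, adjusted p = 0.0229, edgeR). It had 73.0 and 32.3 CPM in asynchronous and 14.0 and 23.8 CPM in mitotic S38A libraries, against 46.9 and 9.95 CPM and then 53.7 and 67.4 CPM in WT ones. Leaving out any of 4 libraries ended the call, with adjusted p from 0.196 without WT mitotic replicate 2 through 0.219 without S38A mitotic replicate 1 and 0.264 without WT asynchronous replicate 2 to 0.503 without S38A asynchronous replicate 1.

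**Figure D3:**
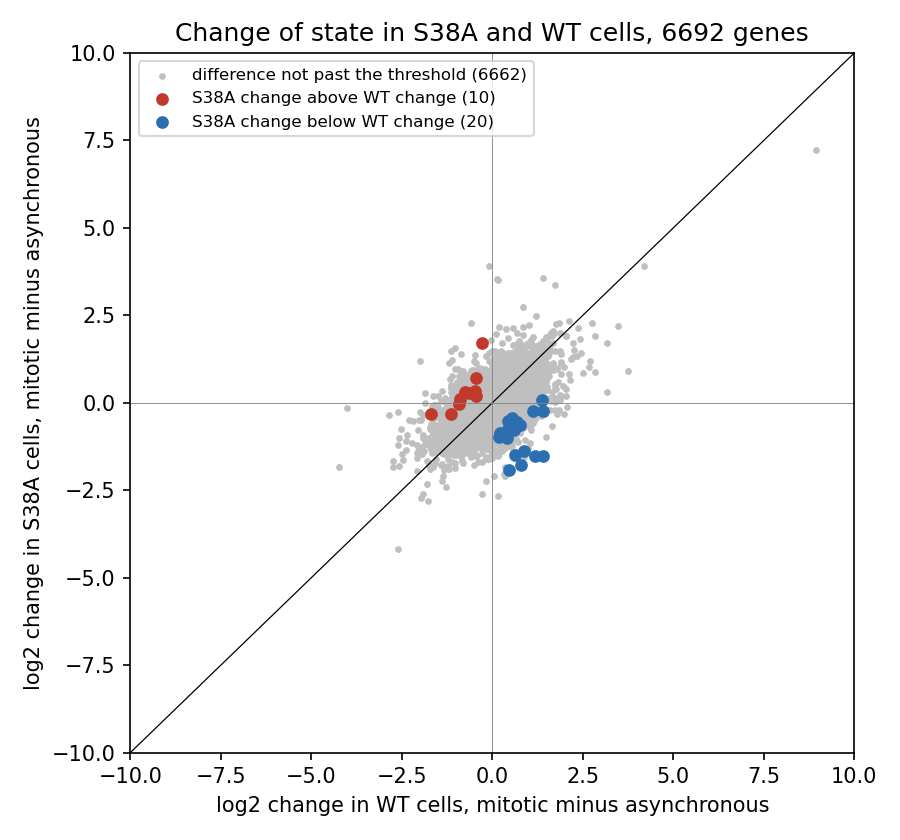
Each point is 1 of the 6692 genes tested, with its log2 change from asynchronous to mitotic cells in WT (horizontal) and S38A cells (vertical) and a line where both are equal. The 10 red and 20 blue genes, whose changes differed between the genotypes (adjusted p under 0.05, edgeR), lie away from that line, and several blue ones lie where the WT change is positive and the S38A change negative.

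From the change in S38D cells that in S38A cells differed in 16 genes, 0.239% of those tested, 9 with a larger value in S38A (0.134%) and 7 with a smaller one (0.105%; adjusted p under 0.05, edgeR). At an unadjusted p under 0.05 there were 703. This count was unstable. DESeq2 called 3 genes, no filter on low counts gave 38, and leaving out 1 library gave 4 without S38A mitotic replicate 1, 5 without S38D mitotic replicate 2, 7 without S38D mitotic replicate 1, 32 without S38D asynchronous replicate 1 and 35 without S38D asynchronous replicate 2. Of the 16 genes, 12 had changed in S38D cells and 6 in S38A cells. The difference from S38D and that from WT share the S38A libraries, so values are given side by side.

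ENSMUSG00000048234.13 fell in S38A cells from 169.6 and 132.6 CPM to 35.0 and 45.0 CPM, a log2 change of -1.93 ± 0.30 (SE, n = 2 against 2, adjusted p = 1.33e-06, edgeR). Its levels overlapped between states in WT cells, at 54.7 and 79.6 CPM and then 127.4 and 67.4 CPM, and in S38D cells, at 57.4 and 46.5 CPM and then 38.2 and 98.2 CPM. The log2 changes there were 0.47 ± 0.33 and 0.41 ± 0.35 (SE). The S38A change differed by -2.40 ± 0.45 from that in WT (adjusted p = 0.000767) and by -2.34 ± 0.47 from that in S38D cells (adjusted p = 0.00585, edgeR). Both asynchronous S38A libraries were above every other library of this gene, and it was among the 15 largest falls. The WT difference was lost without WT mitotic replicate 1 (-1.89, adjusted p = 0.102). The S38D difference was lost with DESeq2 (-2.37, adjusted p = 0.290), without S38A mitotic replicate 1 (-2.15, adjusted p = 0.0951) and without S38D mitotic replicate 2 (-1.49, adjusted p = 0.585).

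ENSMUSG00000074403.2 had overlapping levels in the 2 states of S38A cells, 166.9 and 190.9 CPM and then 175.1 and 169.5 CPM, where S38D cells went from 94.4 and 108.5 to 293.8 and 305.2 CPM. The difference was -1.61 ± 0.32 (SE, adjusted p = 0.00569, edgeR), and that from WT, where the gene rose by 1.21 ± 0.25, was -1.25 ± 0.34 (adjusted p = 0.0656). DESeq2, at -1.66 (adjusted p = 0.290), and leaving out S38A mitotic replicate 1, at -1.62 (adjusted p = 0.0537), ended the S38D call with little change in its size. ENSMUSG00000045679.14 had 67.8 and 64.7 CPM in asynchronous and 72.4 and 63.6 CPM in mitotic S38A libraries, against 47.2 and 42.1 CPM and then 3.82 and 3.51 CPM in S38D ones, from 1 read in each of the latter (difference 3.53 ± 0.77, SE, adjusted p = 0.0139, edgeR). ENSMUSG00000037815.6 had 75.6 and 71.2 CPM and then 74.7 and 90.1 CPM in S38A, against 71.8 and 68.7 CPM and then 3.82 and 14.0 CPM in S38D libraries (difference 3.05 ± 0.61, SE, adjusted p = 0.00569, edgeR). ENSMUSG00000037815.6 also fell in WT cells, from 101.6 and 66.3 to 20.1 and 51.8 CPM (log2 change -1.12 ± 0.36, SE, adjusted p = 0.0215, edgeR), while ENSMUSG00000045679.14 did not pass there (-0.56 ± 0.44, adjusted p = 0.420). For the pair, the S38A log2 changes of 0.04 ± 0.30 and 0.15 ± 0.29 (SE) did not pass (adjusted p = 0.948 and 0.761). Both S38D differences were lost with DESeq2, at 3.60 (adjusted p = 0.717) and 3.06 (adjusted p = 0.381), and without S38D mitotic replicate 1, at 3.58 (adjusted p = 0.150) and 2.44 (adjusted p = 0.160). That of ENSMUSG00000045679.14 was also lost without S38D mitotic replicate 2, at 3.47 (adjusted p = 0.271), and without S38A mitotic replicate 1, at 3.44 (adjusted p = 0.0951). Apart from the 2.44, these values stayed close to the full fit.

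The label of the mitotic cells was set against cell cycle marker genes, which could be read by gene ID through the pairs shipped with scran. In each pair a gene marks a phase when it exceeds its partner, and the score is the percent of pairs in that order. Read counts were compared without gene lengths, so only differences of a score between libraries are read. The G2M score, over 7331 pairs, was 57.8 and 59.4% in asynchronous S38A libraries and 52.0 and 52.8% in mitotic ones. The libraries labelled mitotic thus had the lower score for G2 and M phase, which goes against their label if the pairs hold for footprints of this line, and that was not tested. The G1 score, over 9220 pairs, was 35.7 and 35.2% in asynchronous and 42.5 and 40.9% in mitotic libraries, and the S score, over 4496 pairs, 48.1 and 46.5% against 42.7 and 44.8%. The states did not overlap in any of the 3 scores, which share genes. With 2 libraries against 2, the smallest p an exact permutation test can give is 0.333, so none is reported.

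**Figure D4:**
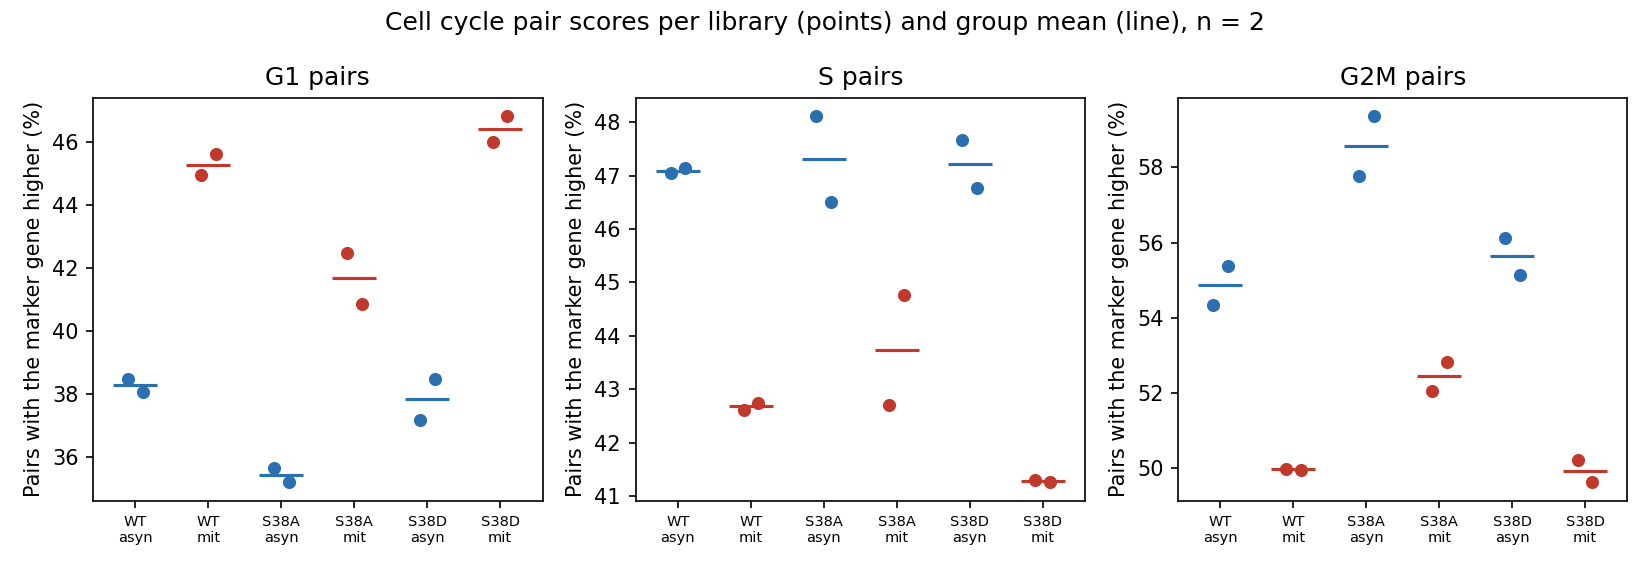
Percent of marker pairs in which the gene marking G1, S or G2M has more reads than its partner, in each of the 12 libraries (points, blue for asynchronous and red for mitotic) with the mean of each group of 2 (line); the axes do not start at 0. In S38A cells the G2M score is 57.8 and 59.4% in asynchronous and 52.0 and 52.8% in mitotic libraries.

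Genes that stand first on balance in the G2M pairs and second in the others were then counted singly, a list chosen after values had been seen. Of 74 such genes in the files 67 were tested, and in S38A cells 21 of them, or 31.3%, were lower and 1 higher in mitotic libraries, beside 9.59 and 9.03% of all genes tested. The other 45 did not pass. Calls were more frequent among abundant genes, 308 of the 1673 in the most abundant class being lower, and the list was not matched for abundance. The median log2 change of the 67 was -0.36, beside -0.0101 over all genes, 50 of the 67 being negative, and the 21 lower genes fell by log2 changes from -1.15 to -0.46. Their summed level was 15915 and 15621 CPM in asynchronous and 12172 and 12572 CPM in mitotic S38A libraries, so the states did not overlap. In bulk libraries, fewer cells in a phase and fewer footprints per cell cannot be told apart. In WT libraries it was 12533 and 12280 and then 10135 and 10404 CPM, and in S38D libraries 14138 and 14138 and then 10661 and 11485 CPM. Mitotic S38A libraries were thus close to asynchronous WT ones in this sum. The difference of the mitotic change from WT passed for 0 of the 67 genes, beside 0.448% of all genes tested. That from S38D passed for 0 as well, beside 0.239% (edgeR). With shares this low over all genes, 0 of 67 does not show that the changes were alike. The count of 21 was 11 with DESeq2, and 12 without S38A asynchronous replicate 1 as well as without mitotic replicate 1.

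Most S phase genes of the same source did not pass, and they were not matched for abundance either. Of 74 tested, 15 were lower in mitotic S38A libraries (20.3%, beside 9.59% of all genes tested), 4 were higher (5.41%, beside 9.03%) and 55 were not called. Their median log2 change was -0.10, with summed levels of 17827 and 17116 CPM against 15347 and 15552 CPM. The lower S genes numbered 5 with DESeq2 and 9 with no filter on low counts, so this count is not stable. On leaving out 1 library the median log2 change of the S genes lay between -0.15 and -0.06. Of 81 G1 genes, 6 were lower and 12 higher, or 7.41 and 14.8%, with a median of 0.09. Their summed levels, 14582 and 13978 CPM in asynchronous and 14044 and 13674 CPM in mitotic libraries, overlapped. Median log2 changes in WT and S38D cells were -0.33 and -0.35 for the G2M genes, -0.13 and -0.25 for the S genes and 0.16 and 0.06 for the G1 genes. The difference of the mitotic change from S38D passed for 2 of the 74 S genes and 0 of the 81 G1 genes, beside 0.239% of all genes tested. That from WT passed for 0 S genes and 1 G1 gene, beside 0.448% (edgeR).

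Few genes were confined by their reads to 1 state of S38A cells. With 0 reads in both asynchronous libraries, and reads in both mitotic libraries that came to at least 10, there were 5 genes of the 11680 with a read in the series, and the reverse held for 1. None of these 6 had enough reads to be tested. The largest total in the 5 was 14 reads, at least 4.07-fold higher in mitotic cells, with the floor of 3 reads taken for the group. The other gene had 12 reads and was at least 4.59-fold lower.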

How the data were processed

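Each library came with a table in which the authors deposited raw read counts, whole numbers, by Ensembl ID with version. Its 5 last rows are totals of uncounted alignments and were kept out. In the order of the alphabet, the submitters' processing notes list bcl2fastq (version 2.16.0.10), Bowtie2 (version 2.3.2), DESeq2 (version 1.18.1), HTSeq (version 0.9.1) and STAR (version 2.5.3a), with mm10 as build and no roles. Only the naming of the files points to coding sequence as what was counted. Strand use and the handling of identical reads: not given in the sources used here. Reads of overlapping genes or of close copies of a gene may thus be split or missing.

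The test was edgeR 4.0.16 (R 4.3.3), quasi-likelihood with TMM scaling, on 6692 genes that passed filterByExpr at a minimum count of 10, of 11680 with a read. All 12 libraries in 6 groups entered 1 model, whose common biological coefficient of variation was 0.0868. Benjamini-Hochberg adjustment ran over all genes tested. A standard error is the log2 change divided by the root of its F. Differences between genotypes were contrasts in this model. Alternatives were DESeq2 1.42.0, the scaling, the filter, the libraries in the fit, a replicate block and leaving out each library.

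No ID matched a symbol (0 in the name table), so symbol lists and rules by symbol could not be applied. Per comparison and direction, the text gives the 2 IDs with the largest log2 value among genes past the threshold with a mean of at least 10 CPM. For the change in S38A cells, groups must also not overlap. Cell cycle pairs came from scran 1.30.0. The comparison and the lists were chosen with earlier results of these data known. No label says that a replicate number pairs libraries.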

Additional observations from a re-analysis of the deposited data

Results flagged for a closer look

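The change from asynchronous to mitotic cells differed between S38A and WT cells by the test of the difference itself for 5 of the genes given by ID. On the log2 scale, S38A minus WT, the difference was 2.00 for ENSMUSG00000056999.14, 1.37 for ENSMUSG00000031245.8, -2.92 for ENSMUSG00000026883.17, -2.70 for ENSMUSG00000048707.9 and -2.40 for ENSMUSG00000048234.13. Between S38A and S38D cells it differed for 4, by 3.53 for ENSMUSG00000045679.14, 3.05 for ENSMUSG00000037815.6, -2.34 for ENSMUSG00000048234.13 and -1.61 for ENSMUSG00000074403.2, S38A minus S38D. ENSMUSG00000048234.13 appears in both, and both differences rest on the same S38A libraries. Of these differences, that of ENSMUSG00000056999.14 from WT passed under the 14 alternatives that gave an adjusted p, DESeq2 giving none, with 1.75 to 2.27 on leaving out 1 library.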

How the results depend on the processing

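For the change in S38A cells, alternatives other than DESeq2 (565 genes) and leaving out a library (702 to 840) kept the count within 1.5 times of 1246. The balance of directions turned, by a small margin, with library totals (640 higher, 613 lower), no filter (567 and 549), a mean of at least 10 CPM (615 and 600) and the S38A libraries alone (734 and 698). The count of differences from the WT change lay between 20 and 44 under all alternatives. The higher among them were 33.3% of the calls, 44.4% with library totals, 48.4% with DESeq2, and between 23.8% without S38A mitotic replicate 1 and 47.6% without WT asynchronous replicate 1 on leaving out a library. The count of differences from the S38D change was 38 without a filter and 3 with DESeq2, and 4 to 35 on leaving out 1 library. The higher were 56.2% of these 16 calls, 41.7% with DESeq2 size factors, 33.3% of 3 with DESeq2 and 73.7% without a filter. With the replicate number as a block, the counts were 1206, 28 and 17. Between S38A asynchronous and mitotic libraries the deviations of same-numbered libraries correlated at r = 0.0322 over 4259 genes, and over all pairs of groups r lay between -0.232 (WT with S38D, both asynchronous) and 0.0918. For asynchronous S38A with S38D it was -0.151. No label says that the numbers pair libraries, and no positive correlation passed 0.1, so the blocked counts are given only as an alternative. No named gene reversed its direction under any alternative run. ENSMUSG00000021250.13 and ENSMUSG00000026360.9 passed under all 11 alternatives, and ENSMUSG00000040270.16 under the 9 that gave an adjusted p. The median log2 change of the G2M genes lay between -0.42 and -0.35 on leaving out 1 library, with 12 to 14 of them called lower, and 11 with DESeq2. Few reads per gene limit what can be seen: scarce genes passed only with changes of about 2-fold or more.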
